A study of Mus musculus with 11 samples.

Results

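The 10 genes described here are Cd2, Cd3d, Cd3e, Cd3g, Cd8a, Cd4, Nkg7, Gzmb, Ccl5 and Ikzf1. Ikzf1 was included as a lymphoid factor, and the others as markers of T cells and natural killer (NK) cells. The 10 genes were examined on all 18 probes that the platform annotation pairs with them, of 45281 probes and 19057 genes on the array. The tumours were mammary tumours of female mice aged 12 weeks, with 1 array per tumour: 5 from PyMT/SIRT6 mice and 6 from PyMT mice. All 11 tumours came from mice with the PyMT transgene, the polyoma virus middle T oncogene, which gives rise to mammary tumours, and the PyMT/SIRT6 mice also bore the Sirt6BAC allele, an extra copy of the chromatin deacylase gene Sirt6 that overexpresses the protein. The PyMT mice were wild type in that respect, and the sources used here name no promoter for the oncogene. RNA of whole tumours was read on 1-colour Illumina arrays (Mouse WG-6 v2.0). The titles give each tumour codes whose meaning is unknown, so it is not clear that each tumour came from its own mouse, and every p-value here therefore reflects the spread among these tumours alone, which may in part be technical. Levels are log2 intensities, errors are SD unless stated, and differences are PyMT/SIRT6 minus PyMT with limma's standard error (SE).

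T cells carry a receptor whose signal is passed into the cell by the CD3 chains, encoded by Cd3d, Cd3e and Cd3g, while the coreceptors CD4 and CD8 mark the helper and cytotoxic classes. Cytotoxic T cells and NK cells kill target cells with granules that hold granzyme B (Gzmb) and NKG7, and they release the chemokine CCL5, which draws further leukocytes. Ikzf1 encodes Ikaros, a zinc finger factor needed for lymphocyte development. In mammary tumours these cells form part of the infiltrate, beside macrophages that are usually more abundant.

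Of the 10 genes, 6 exceeded background on at least 6 of the 11 arrays by their brightest probe, near the share of all genes (53.7%), and 9 of the 18 probes did so, against 40% of all probes. The others include 3, Cd8a, Cd4 and Gzmb, that exceeded it on 0 arrays. None of the 18 probes passed the test between genotypes (0 of 18 called by limma, adjusted p from 0.979 to 0.997, against 0.00663% of all probes). Cd3d, Cd3e, Cd3g, Nkg7 and Ccl5 varied together from tumour to tumour (Pearson r from 0.79 to 0.95 over 11 arrays), with PyMT/SIRT6 replicates 3 and 5 at the top and PyMT replicate 3 at the bottom for each of the 5 genes. Ikzf1 correlated with them at r from -0.15 to 0.11 over 11 arrays. After centring on the genotype means r was 0.38 to 0.69, and in PyMT tumours alone -0.12 to 0.28, with 0 of these pairs called. The brightest Ikzf1 probe read lower in PyMT/SIRT6 tumours (0.692-fold, limma unadjusted p = 0.00285, adjusted p = 0.979). These are whole tumours, in which fewer cells of a type and less RNA per cell cannot be told apart.

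Background was taken on each array as the 95th percentile of 1540 probes for olfactory, vomeronasal and taste receptor genes, which lay between 7.33 and 7.36 on the log2 scale, so that a probe without a transcript passes it by chance on some arrays. By this measure 39.3% to 43.1% of all probes exceeded background on an array. As a check of the labels, the Sirt6 probe ILMN_2684909 read 8.19 to 8.64 in PyMT/SIRT6 tumours and 7.64 to 7.88 in PyMT tumours. Epithelial markers were in place, Krt8, Krt18, Krt19, Cdh1 and Elf5 exceeding background on all 11 arrays and Epcam on 1. Skeletal muscle genes varied widely, with list means of 9.73, 7.70, 7.49, 10.42 and 11.20 in PyMT/SIRT6 replicates 1 to 5 and of 7.46, 8.36, 7.58, 7.81, 11.43 and 8.28 in PyMT replicates 1 to 6, so 3 PyMT/SIRT6 tumours and 1 PyMT tumour exceeded 9.

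**Figure D1:**
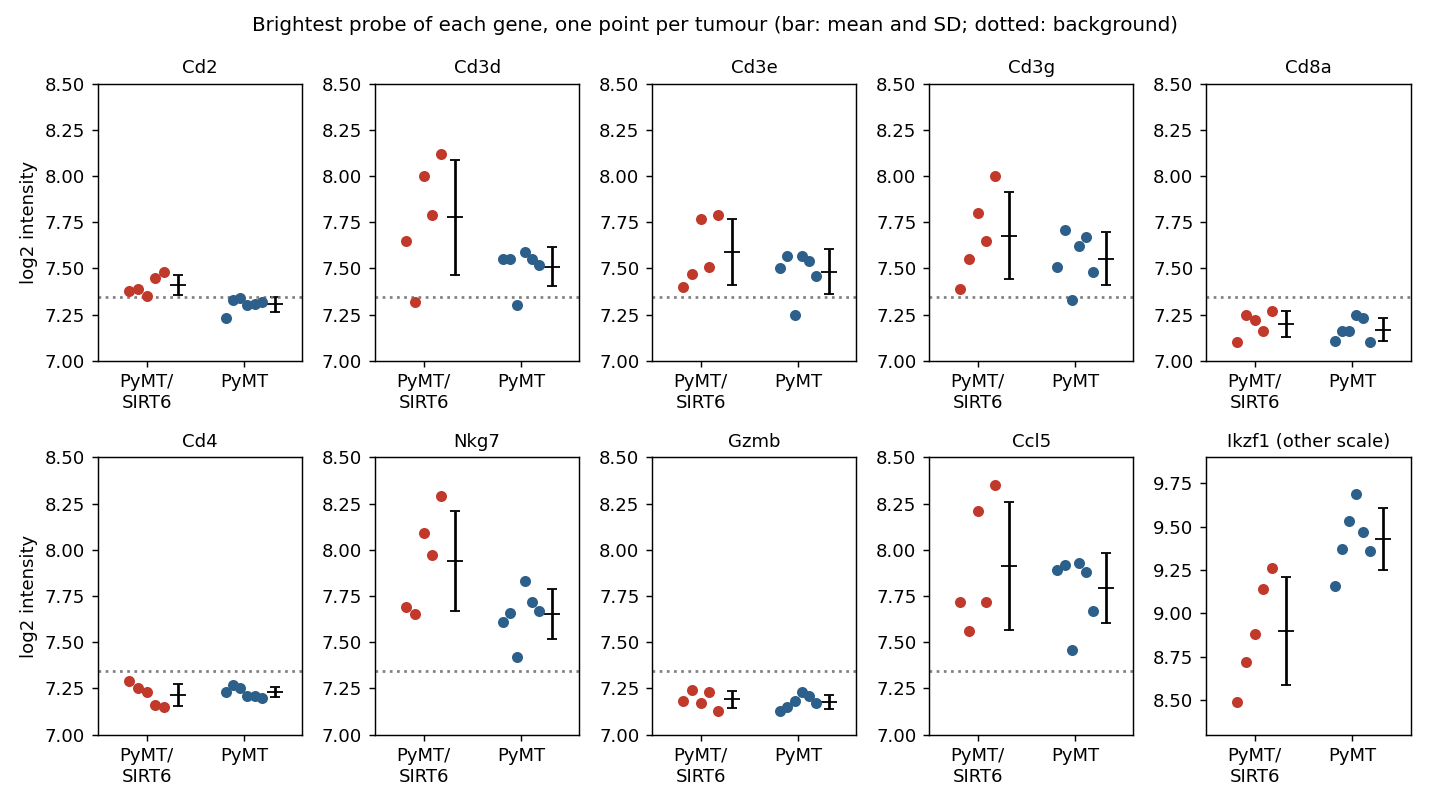
Log2 intensity of the brightest probe of each gene, 1 point per tumour, PyMT/SIRT6 (n = 5, red) left of PyMT (n = 6, blue), with a bar for the mean and SD and a dotted line for a typical background level. Cd8a, Cd4 and Gzmb sit below the line in every tumour, Cd2 straddles it, and Ikzf1, on a scale of its own, reads lower in PyMT/SIRT6 tumours.

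The genes of the CD3 chains lie together, and Cd3d and Cd3g are transcribed away from each other from starts 1355 bases apart. The 250 bases before the start of Cd3d (chr9:44981536-44981785, plus strand), Cd3g (chr9:44980432-44980681, minus strand), Cd3e (chr9:45009612-45009861, minus strand) and Nkg7 (chr7:43436888-43437137, plus strand) are shown because these 4 genes moved together across tumours. They are from RefSeq, build GRCm38.p6, and were found for 7 of the 10 genes. Capitals mark matches on either strand to 3 core motifs of lymphoid factors, Ikaros (TGGGAA), RUNX (TGTGGT) and ETS (CAGGAA).
Cd3d: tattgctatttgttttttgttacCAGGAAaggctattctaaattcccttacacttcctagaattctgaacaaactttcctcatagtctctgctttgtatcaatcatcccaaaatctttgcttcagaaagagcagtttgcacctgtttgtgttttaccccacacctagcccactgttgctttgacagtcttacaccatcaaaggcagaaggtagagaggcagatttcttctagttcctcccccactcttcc
Cd3g: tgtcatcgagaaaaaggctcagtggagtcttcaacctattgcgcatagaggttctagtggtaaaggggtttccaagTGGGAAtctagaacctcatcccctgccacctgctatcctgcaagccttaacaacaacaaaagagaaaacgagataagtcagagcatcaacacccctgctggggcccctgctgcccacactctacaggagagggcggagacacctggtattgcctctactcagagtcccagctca
Cd3e: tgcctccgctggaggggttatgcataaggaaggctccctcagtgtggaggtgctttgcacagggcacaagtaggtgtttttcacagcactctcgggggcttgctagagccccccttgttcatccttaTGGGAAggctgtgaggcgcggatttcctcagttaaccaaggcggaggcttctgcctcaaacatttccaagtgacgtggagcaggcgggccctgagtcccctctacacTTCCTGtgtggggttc
Nkg7: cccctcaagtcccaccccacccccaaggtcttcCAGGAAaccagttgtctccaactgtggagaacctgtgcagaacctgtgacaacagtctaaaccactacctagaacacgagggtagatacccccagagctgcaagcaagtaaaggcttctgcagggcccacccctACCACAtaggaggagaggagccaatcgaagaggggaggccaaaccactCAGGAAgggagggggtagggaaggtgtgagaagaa
The Cd3d stretch held 1 ETS match, Cd3g held 1 Ikaros match, Cd3e held 1 Ikaros and 1 ETS match, and Nkg7 held 1 RUNX and 2 ETS matches. No motif was common to all 4. Such short motifs are frequent, the Ikaros core being present in 21.6%, the RUNX core in 14.0% and the ETS core in 25.7% of the same window of 32851 promoters, so a match describes the letters only.

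Among the CD3 chains, Cd3d (ILMN_2697415) had levels of 7.65, 7.32, 8.0, 7.79 and 8.12 in PyMT/SIRT6 replicates 1 to 5, and in the 6 PyMT tumours it ran from 7.30 through a median of 7.55 to 7.59. The PyMT tumours lay close together apart from replicate 3 at 7.30, whereas the PyMT/SIRT6 tumours spread on both sides of them, so the groups overlapped. The difference was 0.26 ± 0.11 (SE), with means of 7.77 ± 0.31 in PyMT/SIRT6 (n = 5) and 7.51 ± 0.11 in PyMT (n = 6). It passed neither limma's adjustment (adjusted p = 0.979) nor the exact two-sided permutation test (p = 0.0866). Cd3d exceeded background in 4 of 5 PyMT/SIRT6 tumours and 5 of 6 PyMT tumours.

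Cd3e had 2 probes, which gave the same order of tumours at the top. The brighter one, ILMN_1238847, read 7.40, 7.47, 7.77, 7.51 and 7.79 in PyMT/SIRT6 replicates 1 to 5 and from 7.25 through a median of 7.52 to 7.57 in PyMT tumours. Replicates 3 and 5 of PyMT/SIRT6 were the 2 highest and PyMT replicate 3 the lowest, and the remaining arrays were mixed. The difference was 0.11 ± 0.08 (SE) on this probe (limma adjusted p = 0.979, exact permutation p = 0.264) and 0.07 ± 0.06 on ILMN_2784580, whose values correlated with it at r = 0.93 over the 11 arrays (permutation p = 6.0e-05, adjusted p = 5.4e-04 over 18 pairs of probes of 1 gene, Spearman rho = 0.85, r = 0.83 without the 2 most distant arrays).

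Cd3g (ILMN_2722784) read 7.39, 7.55, 7.80, 7.65 and 8.0 in PyMT/SIRT6 replicates 1 to 5, against 7.33 through a median of 7.57 to 7.71 in PyMT tumours. The same 2 PyMT/SIRT6 tumours were highest, PyMT replicate 3 was lowest, and the groups overlapped, with a difference of 0.12 ± 0.09 (SE; limma adjusted p = 0.979, exact permutation p = 0.305). All 3 chains were thus dim, and PyMT replicate 3 was below background for each of them.

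Cd8a and Cd4 were not seen. Cd8a exceeded background on 0 of 11 arrays on both of its probes, with means of 7.20 ± 0.07 in PyMT/SIRT6 and 7.17 ± 0.06 in PyMT tumours on the brighter one. Cd4 did so on 0 arrays on both probes as well, with means of 7.22 ± 0.06 in PyMT/SIRT6 and 7.23 ± 0.03 in PyMT tumours on ILMN_1217214. These levels are those of the chemosensory probes, whose median was 7.21 to 7.22, so neither transcript was detectable above background here. For comparison, 40.7% of all probes exceeded background on 0 arrays.

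Cd2, which encodes an adhesion receptor of T and NK cells, was the only gene of the 10 whose groups did not overlap on the brightest probe. ILMN_2753697 read 7.38, 7.39, 7.35, 7.45 and 7.48 in PyMT/SIRT6 replicates 1 to 5, against 7.23, 7.33, 7.34, 7.30, 7.31 and 7.32 in PyMT replicates 1 to 6. Every PyMT/SIRT6 tumour was thus above every PyMT tumour, a pattern that 0.232% of all probes showed. The exact permutation test gave p = 0.002165, the smallest these arrays can give, but limma's adjusted p over all probes was 0.979. The step was small, 0.10 ± 0.03 (SE) or 1.07-fold, and lay at the edge of detection: Cd2 exceeded background in 4 of 5 PyMT/SIRT6 tumours and 0 of 6 PyMT tumours. Since Cd2 was not above background in PyMT tumours, the PyMT/SIRT6 mean was also set against the background level of those arrays. It was 1.05-fold of that level, a point estimate without an error of its own for a difference that was not called.

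Of the effector genes, Nkg7 and Ccl5 exceeded background on all 11 arrays and Gzmb on 0. Nkg7 (ILMN_1217855) read 7.69, 7.65, 8.09, 7.97 and 8.29 in PyMT/SIRT6 replicates 1 to 5, and from 7.42 through a median of 7.66 to 7.83 in PyMT tumours. PyMT/SIRT6 replicates 3, 4 and 5 lay above all PyMT tumours and the other 2 among them. The difference of 0.29 ± 0.10 (SE), 1.22-fold, was the largest increase among the 18 probes, yet passed neither test (limma unadjusted p = 0.014, adjusted p = 0.979, exact permutation p = 0.0541).

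Ccl5 (ILMN_1231814) read 7.72, 7.56, 8.21, 7.72 and 8.35 in PyMT/SIRT6 replicates 1 to 5 and from 7.46 through a median of 7.89 to 7.93 in PyMT tumours. The 2 PyMT/SIRT6 tumours that were high for the CD3 genes were high here too, but the other 3 lay below the PyMT median. The difference was 0.12 ± 0.13 (SE; limma adjusted p = 0.981, exact permutation p = 0.478). Such small differences hung on single arrays. Leaving out PyMT/SIRT6 replicate 5 gave 0.01 for Ccl5, 0.04 for Cd3g and 0.06 for Cd3e, and leaving out replicate 3 of either genotype gave 0.05 for Ccl5 and 0.06 for Cd3e. The highest values were 0.21 for Ccl5, when PyMT/SIRT6 replicate 2 was left out, and 0.20 for Cd3g, when replicate 1 of that genotype was. Gzmb (ILMN_2653555) stayed at background, with 7.19 ± 0.04 in PyMT/SIRT6 and 7.18 ± 0.04 in PyMT tumours.

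**Figure D2:**
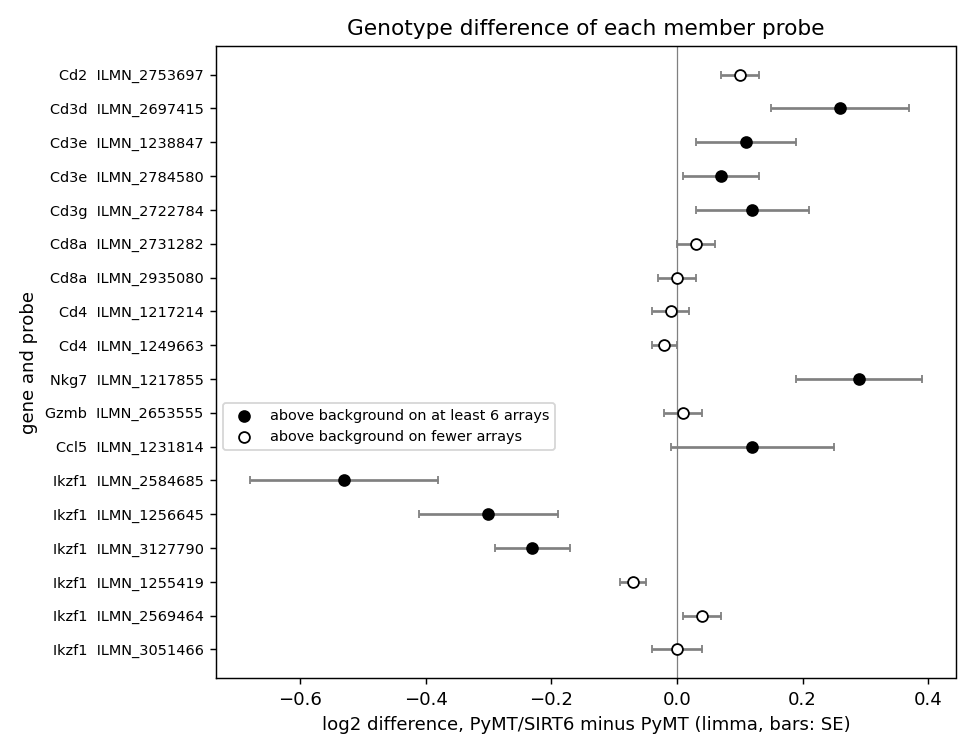
Difference in log2 intensity of each of the 18 probes, PyMT/SIRT6 minus PyMT, with limma's SE as a bar; filled points exceeded background on at least 6 arrays. The differences run from -0.53 to 0.29, the 3 brightest Ikzf1 probes lie to the left of 0, and Cd3d and Nkg7 lie farthest to the right.

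Ikzf1 was the only gene of the 10 that read lower, by more than its SE, in PyMT/SIRT6 tumours on its brightest probe. That probe, ILMN_2584685, is annotated to a cDNA clone and read 8.49, 8.72, 8.88, 9.14 and 9.26 in PyMT/SIRT6 replicates 1 to 5, against 9.16, 9.37, 9.53, 9.69, 9.47 and 9.36 in PyMT replicates 1 to 6. Only PyMT/SIRT6 replicate 5 exceeded a PyMT tumour, replicate 1. The means were 8.90 ± 0.31 in PyMT/SIRT6 and 9.43 ± 0.18 in PyMT, a difference of -0.53 ± 0.15 (SE; exact permutation p = 0.00649), and limma's adjusted p was 0.979.

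The other 5 Ikzf1 probes split by brightness. On ILMN_1256645 the level was 7.78 ± 0.23 in PyMT/SIRT6 and 8.09 ± 0.20 in PyMT (difference -0.30 ± 0.11 SE, exact permutation p = 0.0368). On ILMN_3127790 it was 7.45 ± 0.10 in PyMT/SIRT6 and 7.68 ± 0.14 in PyMT (-0.23 ± 0.06 SE, exact permutation p = 0.00866). Both pointed the same way as the brightest probe with overlapping groups, and both had limma adjusted p = 0.979. ILMN_1255419 exceeded background in 0 of 5 PyMT/SIRT6 and 4 of 6 PyMT tumours, with means of 7.27 ± 0.03 in PyMT/SIRT6 and 7.35 ± 0.02 in PyMT (exact permutation p = 0.00649), so it gives no fold beyond the background level. ILMN_2569464 exceeded it on 0 arrays and ILMN_3051466 on 1, and they differed by 0.04 ± 0.03 and 0.00 ± 0.04 (SE), so the probes of this gene disagreed where the signal was at background.

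The Ikzf1 probes also differed in how far they moved together. ILMN_1256645 and ILMN_3127790 correlated at r = 0.95 over 11 arrays (permutation p = 4.0e-05, adjusted p = 5.4e-04, rho = 0.91, r = 0.85 without the 2 most distant arrays). Against the brightest probe their r was 0.70 and 0.67, and neither pair passed the adjustment over the 18 pairs by Pearson's r (permutation adjusted p = 0.0599 and 0.0727), while both passed by rank (rho 0.72 and 0.78, permutation adjusted p = 0.0428 and 0.0361) and had r = 0.73 and 0.74 without the 2 most distant arrays. Of its relatives, Ikzf2 exceeded background on 0 arrays, Ikzf3 on 5 and Ikzf5 on 11, and they differed by 0.01, 0.01 and -0.05 between genotypes.

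**Figure D3:**
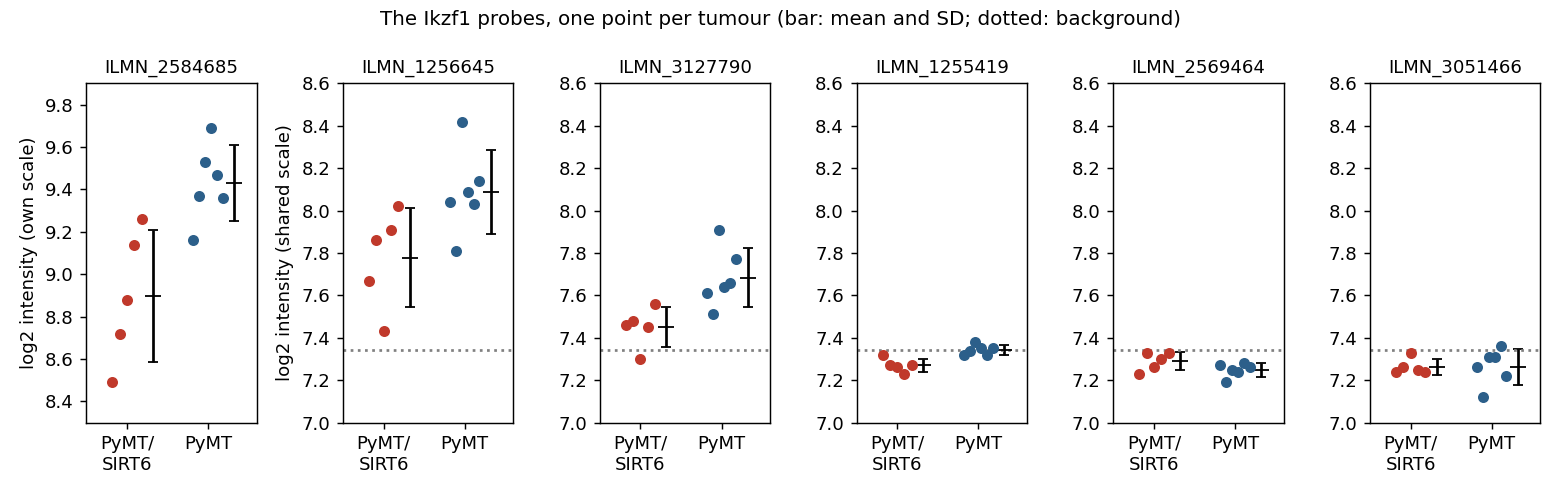
Log2 intensity of the 6 Ikzf1 probes, 1 point per tumour, PyMT/SIRT6 (n = 5, red) left of PyMT (n = 6, blue), with mean and SD bars and a dotted line for background; the first panel has its own scale. The 3 brightest probes read lower in PyMT/SIRT6 tumours, and the other 3 lie near background.

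Counted together, 11 of the 18 probes read higher and 7 lower in PyMT/SIRT6 tumours, with a median difference of 0.02, beside 22142 higher and 23139 lower of all 45281 probes and a median of 0.00. At an unadjusted limma p under 0.05 there were 3 higher (Cd2, Cd3d and Nkg7; 2.2% of all probes are so called) and 4 lower, all of them Ikzf1 probes (2.7% of all probes), or 4.91% of all probes in either direction. Over the brightest probe of each gene the median was 0.11 with 8 higher and 2 lower, where 46.4% of all genes read higher. Of the brightest probes 2 of 10, Cd2 and Ikzf1, had an exact permutation p under 0.05 before any adjustment, as did 4.94% of all genes. Without the 4 tumours whose muscle list mean exceeded 9 the differences were 0.06 for Cd2 and 0.16 for Cd3d, on 2 PyMT/SIRT6 and 5 PyMT arrays, where the smallest exact p is 0.0476. With normexp background correction of the deposited intensities, whose earlier background treatment is unknown, the difference was 0.32 for Cd2, 0.54 for Cd3d, 0.56 for Nkg7 and -0.67 for the brightest Ikzf1 probe, again with 0 called (limma adjusted p = 0.98 each, and from 0.449 to 1.0 over all alternatives of these probes).

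The second question was whether the genes varied together. Over 11 arrays the 45 pairs of genes had a median r of 0.20, from -0.69 to 0.95, and 33.3% had an r above 0.5. Among all pairs of the 18106 probes above background on at least 6 arrays the median was 0.00 and 11.1% exceeded 0.5. The permutation test with adjustment over the 45 pairs called 10, and these were all 10 pairs among Cd3d, Cd3e, Cd3g, Nkg7 and Ccl5.

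The closest pair was Cd3d and Nkg7 (r = 0.95, permutation p = 6.0e-05, adjusted p = 9.0e-04, rho = 0.91 with adjusted p = 0.00435), followed by Cd3e and Cd3g (r = 0.94, permutation adjusted p = 9.0e-04, rho = 0.94 with adjusted p = 0.0027). Cd3e and Ccl5 gave r = 0.94 (permutation adjusted p = 9.0e-04, rho = 0.90 with adjusted p = 0.00435). The lowest of the 10 was Cd3d and Cd3g, the divergent neighbours (r = 0.79, permutation adjusted p = 0.016, rho = 0.64 with adjusted p = 0.166). By rank only the 3 closest pairs passed.

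The calls depended on few tumours. Without the 2 arrays farthest from the median of the first gene, which for all 10 pairs included PyMT/SIRT6 replicate 5, r was 0.43 to 0.89 and only Cd3e and Cd3g passed (r = 0.89, permutation adjusted p = 0.0274). Without PyMT/SIRT6 replicate 5 alone, 3 pairs passed, Cd3d with Nkg7, Cd3e with Cd3g and Cd3e with Ccl5, and the lowest r among the 5 genes was 0.64. Without the 4 muscle-rich tumours 3 pairs passed on the 7 arrays left, but the lowest r was 0.80, as large as over all 11 arrays. With each value centred on its genotype's mean the r of the 10 pairs was 0.77 to 0.95. In the 6 PyMT tumours alone r was 0.77 to 0.97, and 0 pairs passed the adjustment (lowest permutation adjusted p = 0.104). PyMT replicate 3 was the lowest of these tumours for each of the 5 genes. It stood apart for Cd3d (7.30, nearest PyMT tumour 7.52) and Cd3e (7.25, nearest 7.46). The r within PyMT may thus rest largely on this tumour, and it was not computed without it.

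**Figure D4:**
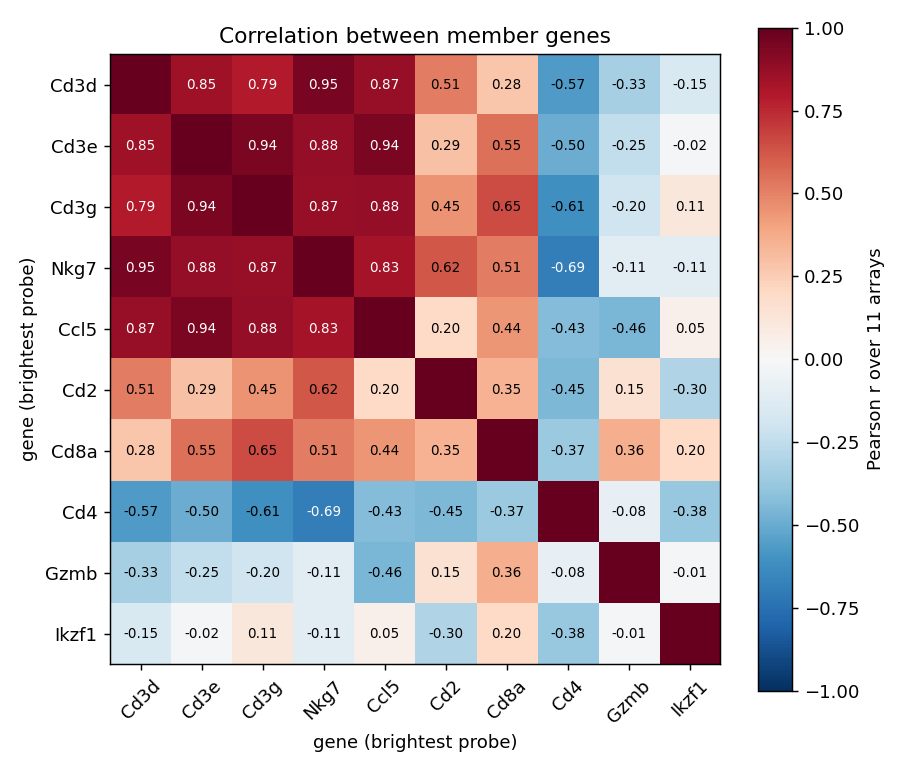
Pearson r between the brightest probes of each pair of genes over 11 arrays, red for positive and blue for negative. The block of Cd3d, Cd3e, Cd3g, Nkg7 and Ccl5 at the upper left has r from 0.79 to 0.95, while Ikzf1 in the last row has r from -0.38 to 0.20.

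Cd2 correlated with these 5 genes at r from 0.20 to 0.62 and no such pair passed (the highest, with Nkg7, had a permutation adjusted p = 0.142). No Ikzf1 probe passed with them either: over 30 pairs of an Ikzf1 probe with one of the 5 genes r ran from -0.69 to 0.42 and 0 passed (lowest permutation adjusted p = 0.316). On the brightest Ikzf1 probe the r with Cd3d, Cd3e, Cd3g, Nkg7 and Ccl5 was -0.15, -0.02, 0.11, -0.11 and 0.05. After centring on the genotype means it was 0.49, 0.42, 0.61, 0.69 and 0.38, again with 0 of these pairs called. In the 6 PyMT tumours alone, however, it was -0.12, -0.05, 0.05, 0.28 and -0.12, so the positive values did not hold within that genotype. Among the PyMT/SIRT6 tumours this Ikzf1 probe was lowest in replicate 1 (8.49) and highest in replicate 5 (9.26). The 5 genes were also highest in replicate 5. Cd3e and Cd3g were lowest in replicate 1, and Cd3d, Nkg7 and Ccl5 in replicate 2. The correlation within PyMT/SIRT6 tumours alone was not tested. Cd4 read in the opposite direction to Nkg7 (r = -0.69, permutation adjusted p = 0.0794). This pair passed with genotype centring (r = -0.75, permutation adjusted p = 0.0331), with the mean of a gene's probes (adjusted p = 0.0354 by permutation) and without PyMT/SIRT6 replicate 3 (adjusted p = 0.0384 by permutation), and Cd4 with Ikzf1 passed with centring (r = -0.80, permutation adjusted p = 0.0156), which made 12 pairs called with centring and 11 with probe means. Cd4 was at background on all arrays. Correlations of Cd8a, Cd4 and Gzmb therefore compare background readings.

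The mean of the 5 genes, each centred on its own average, placed the tumours in order. It was -0.11, -0.17, 0.30, 0.05 and 0.43 in PyMT/SIRT6 replicates 1 to 5, and -0.07, 0.00, -0.33, 0.03, -0.01 and -0.12 in PyMT replicates 1 to 6. PyMT/SIRT6 replicates 5 and 3 stood apart at the top, PyMT replicate 3 at the bottom, and the other tumours lay between -0.17 and 0.05. PyMT replicate 3 was also low in some other readings. It had the lowest share of probes above background (39.3%) and the lowest list means of the 11 arrays for epithelial (9.75), macrophage (8.90) and pan-leukocyte genes (8.38). It was not low throughout. Its list means for B and plasma cells (7.37) and neutrophils (8.23) lay above the PyMT means (7.29 and 8.08). Its brightest Ikzf1 probe read 9.53, where the PyMT mean was 9.43. For the 5-gene mean, the group means were 0.10 ± 0.26 in PyMT/SIRT6 and -0.08 ± 0.13 in PyMT tumours.

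**Figure D5:**
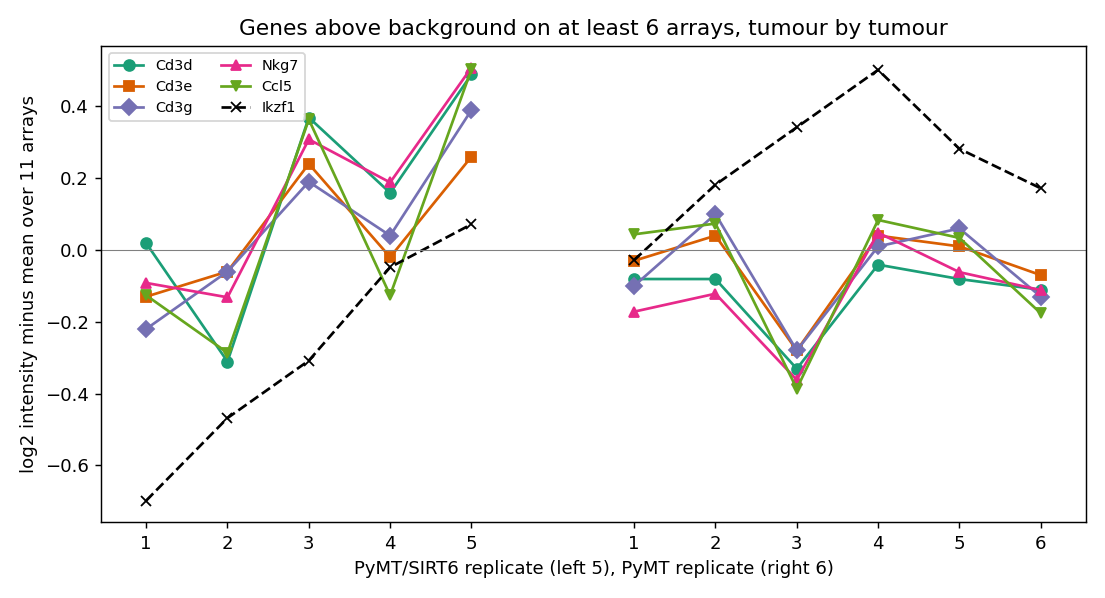
Log2 intensity of 6 genes minus each gene's mean over 11 arrays, for PyMT/SIRT6 replicates (left 5) and PyMT replicates (right 6); lines only join the points of a gene, since replicates have no order. The 5 solid lines peak in PyMT/SIRT6 replicates 3 and 5 and dip in PyMT replicate 3, and the dashed Ikzf1 line is high in all but 1 of the PyMT tumours.

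Readings for other cell types moved with this order in part, and their part in the result was not tested. The pan-leukocyte list, 10 genes with 7 above background on at least 6 arrays, had its highest mean in PyMT/SIRT6 replicate 5 (8.69), with group means of 8.61 ± 0.07 in PyMT/SIRT6 and 8.53 ± 0.08 in PyMT. Its defining gene Ptprc exceeded background on 2 arrays. With this list as a covariate the differences of Cd3e, Cd3g and Ccl5 turned to -0.03, -0.04 and -0.10, and those of Cd3d and Nkg7 were 0.09 and 0.11 (0 called). The lymph node stroma list, with 2 of 6 genes above background on at least 6 arrays, was likewise highest in PyMT/SIRT6 replicate 5 (7.54). It was next highest in PyMT replicate 4 (7.49), while PyMT/SIRT6 replicate 3 read 7.36. Its brightest gene was Ccl21a (mean 7.90), followed by Ccl19 (7.37). Ccl21a read 8.69 in PyMT/SIRT6 replicate 5, 8.63 in PyMT replicate 4 and 7.52 in PyMT/SIRT6 replicate 3. The list mean ranged from 7.31 to 7.54 in PyMT/SIRT6 and from 7.29 to 7.49 in PyMT tumours, and Cr2 was at background throughout.

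Macrophage genes exceeded background on at least 6 arrays for 10 of 10 genes, with list means of 9.20 ± 0.14 in PyMT/SIRT6 and 9.03 ± 0.10 in PyMT tumours. The B and plasma cell list, with 2 of 9 genes above background on at least 6 arrays, gave 7.29 ± 0.06 in PyMT/SIRT6 and 7.29 ± 0.05 in PyMT. Neutrophil genes, 2 of 5 above background on at least 6 arrays, gave 8.08 ± 0.17 in PyMT/SIRT6 and 8.08 ± 0.22 in PyMT. Their mean rested on S100a8 (11.19), the next brightest being Csf3r (7.40). Dendritic cell genes, 2 of 7 above background on at least 6 arrays, gave 7.30 ± 0.01 in PyMT/SIRT6 and 7.28 ± 0.02 in PyMT, below the background level.

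Beyond the 10 genes, 42 further T and NK cell genes were listed, of which 38 had a probe. By the brightest probe, 12 exceeded background on at least 6 arrays, among them Cd8b1, which encodes the beta chain of CD8, Thy1, a surface protein of mouse T cells and of stromal cells, Foxp3, the factor of regulatory T cells, Prf1, which encodes perforin, Ctsw and Xcl1. Another 12 did so on 0 arrays, including Cd247, which encodes the zeta chain of the receptor, Lat, Tbx21, Eomes and Ncr1. Cd8b1 (mean 11.02) and Foxp3 (9.07) read far above Cd3d, Cd3e and Cd3g (7.63, 7.53 and 7.61). Yet Cd8a and Ctla4 exceeded background on 0 arrays and Icos on 1. Whether the Cd8b1 and Foxp3 signals came from T cells was not tested. In PyMT/SIRT6 tumours 28 of the 38 read higher and 10 lower, with a median difference of 0.01, and 0 were called. Of all genes, 46.4% read higher by the brightest probe. Only 12 of the 38 exceeded background on at least 6 arrays, against 53.7% of all genes, so many of these signs are of readings near background. At an unadjusted limma p under 0.05 no gene of this list read higher (0 of 38) and 2 read lower. These were Bcl11b (-0.22 ± 0.07 SE, unadjusted p = 0.00492 by limma) and Foxp3 (-0.24 ± 0.11 SE, unadjusted p = 0.0413 by limma), both with a limma adjusted p = 0.979.

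Part of these genes had their highest values in the tumours that were high for the CD3 genes, and part did not; no correlation was tested for them. Klrd1, a receptor chain of NK cells, was highest in PyMT/SIRT6 replicates 4, 5 and 3 (7.55, 7.52 and 7.51) and low in PyMT replicate 3 (7.33). The costimulatory receptor gene Cd27 was highest in PyMT/SIRT6 replicate 5 (7.53), barely above PyMT replicate 5 (7.52), and lowest in PyMT replicate 3 (7.32). Thy1 was highest in PyMT/SIRT6 replicates 4, 5 and 3 (9.57, 9.39 and 9.30).

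Others were ordered differently. Cd8b1 averaged 11.02 ± 0.43 in PyMT/SIRT6 and 11.02 ± 0.37 in PyMT tumours and was highest in PyMT/SIRT6 replicate 2 (11.74), a tumour where Cd3d was low, and in PyMT replicate 5 (11.68). Gata3, a factor of helper T cells and of luminal mammary epithelium, was at 10.13 ± 0.34 in PyMT/SIRT6 and 10.19 ± 0.47 in PyMT, with its 2 highest values in the same 2 tumours. Prf1 averaged 8.03 ± 0.40 in PyMT/SIRT6 and 7.78 ± 0.31 in PyMT and was highest in PyMT/SIRT6 replicates 4 (8.46) and 1 (8.44). Xcl1 and Ctsw, genes of cytotoxic cells, followed the order of the CD3 genes in part. Their highest values were in PyMT/SIRT6 replicate 3 (8.11 and 8.24), and they were low in PyMT replicate 3 (7.42 and 7.59). PyMT/SIRT6 replicate 5, however, read 7.60 and 7.81, below the highest PyMT tumours (7.82 and 7.93).

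Among chemokine genes beside Ccl5, Cxcl9, which attracts activated T cells, averaged 8.14 ± 0.47 in PyMT/SIRT6 and 7.85 ± 0.33 in PyMT (difference 0.28, limma adjusted p = 0.979). Ccl4, another ligand of a CCL5 receptor, averaged 8.20 ± 0.28 in PyMT/SIRT6 and 8.26 ± 0.38 in PyMT. Cxcl10 was near background, at 7.31 ± 0.09 in PyMT/SIRT6 and 7.41 ± 0.08 in PyMT.

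To find genes with a like pattern, 9961 genes above background on at least 6 arrays were ranked by their correlation with the mean of the 10 genes. The 8 highest were Ndufs3 (r = 0.90 over 11 arrays), Lep (0.88), Hopx (0.87), Pde3a, Msx1, Dhodh and Coro1a (0.86 each) and Sncg (0.85), of which Coro1a encodes a leukocyte actin-binding protein. With Ikzf1 left out of the mean, a choice made after seeing the data, they were Trbv13-2, a T cell receptor beta segment, Cxcl9 and Gimap1, a gene of lymphocytes (0.86 each), then Themis2 and Parp16 (0.85 each), Ift57 and Dusp23 (0.84 each) and Aqp11 (0.83). Trbv13-2 read 7.97 ± 0.31 in PyMT/SIRT6 and 7.71 ± 0.04 in PyMT. Ranked against the brightest Ikzf1 probe, also chosen after seeing the data, the list was led by Snai2 (0.92), Trappc3 (0.91) and Septin2 (0.90). All of these values are descriptions over 11 arrays, selected as the highest of many.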

How the data were processed

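RNA was amplified to biotinylated cRNA (Ambion MessageAmp), per the labels' protocols. The authors deposited linear probe intensities, with background correction and normalization not stated in any source used here. Sorted by size, the arrays' values differed by at most 1.08% and the lowest was 116.7, so quantiles were already shared, no background subtraction was visible, and no further scaling was applied. Precision is limited by how many arrays there are.

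Groups follow the genotype label; replicate numbers follow deposit order. Probes were named from the platform annotation, 34885 with a single symbol, 18 with several and 10378 with none, and a gene is represented by its brightest probe on average. All 45281 probes were tested on the log2 scale with limma 3.58.1 in R 4.3.3 (lmFit, eBayes with trend) and Benjamini-Hochberg adjustment at 0.05, after the script was checked on simulated data. Single probes had an exact two-sided permutation test over 462 splits, unadjusted. Correlations had a permutation test with 100000 resamples (exact with 9 arrays or fewer), adjusted over 45 pairs.

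The genes and lists were chosen with earlier results of these data known. Named are the 10 genes, the 8 most like in pattern without clone-named or predicted models, and up to 4 of the brightest in each list, others after their values were seen. Alternatives covered filters, probe averaging, background, offsets, normalization, eBayes settings, array weights, covariates, deposit order and each array left out. Omitting Ikzf1, or the 4 arrays with a muscle list mean above 9, was added after seeing the data.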

Additional observations from a re-analysis of the deposited data

Results flagged for a closer look

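Several values stood apart from the rest of their group by the gap to the nearest array relative to the group's range. There were 64 groups tested, of which about 1 in 20 would be picked out by chance. PyMT replicate 3 was the low array in 3 of them: Cd3d read 7.30 there, with the nearest PyMT array at 7.52, Cd3e (ILMN_1238847) read 7.25, with the nearest at 7.46, and the pan-leukocyte list mean was 8.38, with the nearest at 8.54. The genes Cd3d and Cd3e are correlated with each other, so these are not separate observations. Among PyMT/SIRT6 arrays, replicate 1 had the lowest mean of the other T and NK cell genes, 7.57 against 7.59 for the nearest, a step of little size, and replicate 3 had the highest mean of the Ikaros family list, 7.47 against 7.39. PyMT replicate 5 had a skeletal muscle list mean of 11.43, with the nearest PyMT array at 8.36.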

How the results depend on the processing

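No probe of the 10 genes was called under any of the 25 alternatives. No paired analysis was possible because the titles give each tumour a number of its own and codes of unknown meaning, with no replicate number shared between genotypes; deposit order as a block also left 0 called. The number of brightest probes with an unadjusted exact permutation p under 0.05 was 2 of 10 (4.94% of all genes), with a range of 2 to 4 when leaving out each array (4 without PyMT/SIRT6 replicate 2) and 1 without the 4 arrays high in muscle genes, where the smallest exact p is 0.0476. The number of correlated gene pairs, 10, was 0 in the PyMT arrays alone, 3 to 10 when leaving out each array (3 without PyMT/SIRT6 replicate 5) and 3 without the muscle-rich arrays, on 7 arrays and with a lowest r of 0.80 among the 5 genes (0.79 over all arrays; 0.77 in the PyMT arrays, 0.64 without PyMT/SIRT6 replicate 5). The median r of 0.20 was 0.85 over genes above background on at least 6 arrays and 0.36 without Ikzf1, and 0.09 to 0.25 when leaving out each array.

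Signs turned for small differences only. With the pan-leukocyte list as covariate both Cd3e probes gave -0.03, Cd3g -0.04, Ccl5 -0.10, Cd4 (ILMN_1217214) 0.02 and Cd8a (ILMN_2935080) 0.01. That Cd8a probe gave 0.00 with normexp and -0.02 to 0.01 when leaving out each array, that Cd4 probe -0.03 to 0.00, and the Ikzf1 probe ILMN_3051466 -0.03 to 0.02. Without the muscle-rich arrays the Cd4 probes gave 0.01 and 0.00 (ILMN_1249663). The cause was not tested. Signal near background limits Cd2, Cd4, Cd8a and Gzmb most.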
